A study of Mus musculus with 6 samples.

Results

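The genes described here are 10 imprinted genes with known roles in growth and in neurons, Igf2, Grb10, Dlk1, Cdkn1c, Plagl1, Peg3, Ndn, Magel2, Mest and Nnat. They were chosen by symbol, and all 10 had a row among the 20367 genes shared by the 6 deposited files. The files hold RNA sequencing of cells sorted from embryonic mouse cortex (C57BL/6J), with 1 library for each of 2 populations at embryonic days 13.5, 15.5 and 16.5 (E13.5, E15.5 and E16.5). Heterozygous Tbr2(Eomes)-GFP mice were crossed with homozygous DCX-mRFP mice, and the embryos used for both populations carried both reporters. Tbr2 (Eomes) is a transcription factor of intermediate progenitors, dividing cells that give rise to projection neurons, and DCX is a microtubule protein of young neurons. Neurons derived from intermediate progenitors (IPN) were the cells with both colors. Non-IPN were the cells with red color alone, a gate that any other red cell of the cortex could enter.

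The E15.5 libraries each came from 1000000 cells without amplification, and the E13.5 and E16.5 libraries each from 10000 cells after amplification of the transcriptome. Levels are given as VPM, each deposited value scaled to a column total of 1000000, and where a population has 3 values they follow the order of age, youngest first. Column totals were 12583033 to 15471744 in the 4 amplified libraries and 31351706 to 32522834 in the unamplified ones. Age, cell number and amplification changed together at E15.5 and cannot be told apart, so levels at E15.5 were not tested against another age. The test of whether the population difference changed with age does use the E15.5 pair. No gene length was used, and levels are compared between libraries, not between genes. In bulk libraries, fewer cells of a type and less RNA per cell cannot be told apart either. The labels name no separate animals, and the population difference was replicated over age alone.

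Of the reporter genes, Eomes was at 437, 102 and 98.4 VPM in the IPN libraries, against 214, 72.5 and 72.0 VPM in the non-IPN libraries. Dcx was at 1392, 2863 and 3269.7 VPM in the IPN libraries, against 856, 4643 and 4448 VPM in the non-IPN libraries. The 14 GABA and interneuron markers summed to 35.0, 86.4 and 83.9 VPM in IPN and 1744, 6115 and 3485 in non-IPN, and the 10 projection neuron markers to 3783, 5587 and 5384 in IPN and 621, 816 and 2819.5 in non-IPN. The 10 microglia and macrophage markers summed to 5.04, 2.28 and 2.46 in IPN and 935, 918 and 478 in non-IPN. One library stood apart, that of non-IPN at E13.5, with red blood cell markers at 49274 VPM (at most 277 in any other library), radial glia markers at 4560.4 (534 to 1316 elsewhere) and cell cycle markers at 4994 (353 to 1638 elsewhere).

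Imprinted genes are expressed mainly from the copy of 1 parent, under the control of DNA methylation laid down in the egg or the sperm. Many act on embryonic growth, paternally expressed genes often promoting and maternally expressed genes often restraining it, and many remain active in the brain. Of the genes described, Igf2, Dlk1, Plagl1, Peg3, Ndn, Magel2, Mest and Nnat are paternally expressed in most tissues that use them. Cdkn1c is maternally expressed, and Grb10 is maternally expressed in most tissues and paternally in neurons. The files count RNA per gene and do not separate the parental copies.

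Promoter sequences were found for 9 of the 10 genes in RefSeq on build GRCm38.p6, as windows from 250 bases before to 50 bases after an annotated start, whereas the submitters' processing notes name build mm9. Shown are Ndn and Magel2, neighbors in the region lost in Prader-Willi syndrome. They were the most correlated pair of the 10 genes over the 6 libraries. Also shown are Grb10 and Nnat, which with Magel2 were called lower at E16.5. Capitals mark each CG dinucleotide, the site at which imprinted promoters can be methylated.
Ndn, chr7:62348027-62348326, plus strand: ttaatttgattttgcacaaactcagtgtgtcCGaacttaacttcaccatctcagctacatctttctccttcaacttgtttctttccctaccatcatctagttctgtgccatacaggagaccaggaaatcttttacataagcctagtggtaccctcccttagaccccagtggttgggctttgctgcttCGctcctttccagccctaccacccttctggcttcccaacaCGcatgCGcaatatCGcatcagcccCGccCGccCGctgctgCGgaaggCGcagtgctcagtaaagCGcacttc
Magel2, chr7:62376729-62377028, plus strand: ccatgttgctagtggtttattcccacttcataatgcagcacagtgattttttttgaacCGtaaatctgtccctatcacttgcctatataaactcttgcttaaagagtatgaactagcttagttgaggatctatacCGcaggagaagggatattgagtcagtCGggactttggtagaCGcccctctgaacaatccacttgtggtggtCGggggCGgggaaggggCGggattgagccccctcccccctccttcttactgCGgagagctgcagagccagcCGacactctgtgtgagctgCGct
Grb10, chr11:12037371-12037670, minus strand: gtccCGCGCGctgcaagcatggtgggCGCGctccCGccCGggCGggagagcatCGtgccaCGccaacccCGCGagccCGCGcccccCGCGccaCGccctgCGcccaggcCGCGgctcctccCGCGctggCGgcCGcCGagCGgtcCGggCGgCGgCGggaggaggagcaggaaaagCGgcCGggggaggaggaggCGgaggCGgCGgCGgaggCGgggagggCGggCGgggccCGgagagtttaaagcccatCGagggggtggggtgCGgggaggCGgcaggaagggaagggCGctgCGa
Nnat, chr2:157559828-157560127, plus strand: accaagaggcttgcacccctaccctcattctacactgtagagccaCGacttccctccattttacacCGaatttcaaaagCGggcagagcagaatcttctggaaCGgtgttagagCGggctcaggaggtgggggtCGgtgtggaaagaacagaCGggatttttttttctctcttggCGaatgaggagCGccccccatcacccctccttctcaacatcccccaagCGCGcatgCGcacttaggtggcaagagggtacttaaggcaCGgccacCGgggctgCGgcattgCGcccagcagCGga
CG dinucleotides numbered 11 in the Ndn window, 10 in Magel2, 45 in this Grb10 window and 17 in Nnat. Over all 32851 promoter windows of that length the median was 7 and the upper quartile 20. The other Grb10 window, not shown, held 9. The letters GGGGCCCC, a palindrome that reads the same on both strands and belongs to the GC-rich motif of Plagl1, occurred in 1 of 15 windows of these genes, that of Peg3, and in 1.08% of all windows (354). A match describes letters and is not a binding site.

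Across ages, none of the 10 genes passed the test between IPN and non-IPN. In VPM, 8 of them were higher in IPN at some ages and in non-IPN at others. The other 2 (20%), Dlk1 and Grb10, were lower in IPN throughout, a share near that of all genes (20.8%). Of all genes, 30.5% kept 1 direction in the 3 pairs, with 9.64% higher in IPN throughout. Fits and log2 ratios are on the scale of log2(deposited value + 1), which is not rescaled to the column totals and so can differ from a ratio of VPM, also in sign when the populations are close. On that scale 4 of the 10 kept 1 direction (40%), against 29.3% of all genes. Of all 19561 genes tested, 3.39% were called at an adjusted p under 0.05 in limma (0.982% higher and 2.41% lower in IPN), against 0 of the 10. At an unadjusted p under 0.05, 3 of the 10 passed, Dlk1, Grb10 and Ndn, as did 13.6% of all genes. The median fitted difference was 0.12 for the 10 genes and -0.02 for all genes. The median size of the log2 ratio, sign left aside, was 1.46 in the E13.5 pair, 0.54 in the E15.5 pair and 0.62 in the E16.5 pair for the 10 genes. For the 12831 genes with a mean of at least 1 VPM, a filter not applied to the 10, these medians were 0.69, 0.29 and 0.48. For 43 other imprinted genes with that mean they were 0.80, 0.49 and 0.58.

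**Figure D1:**
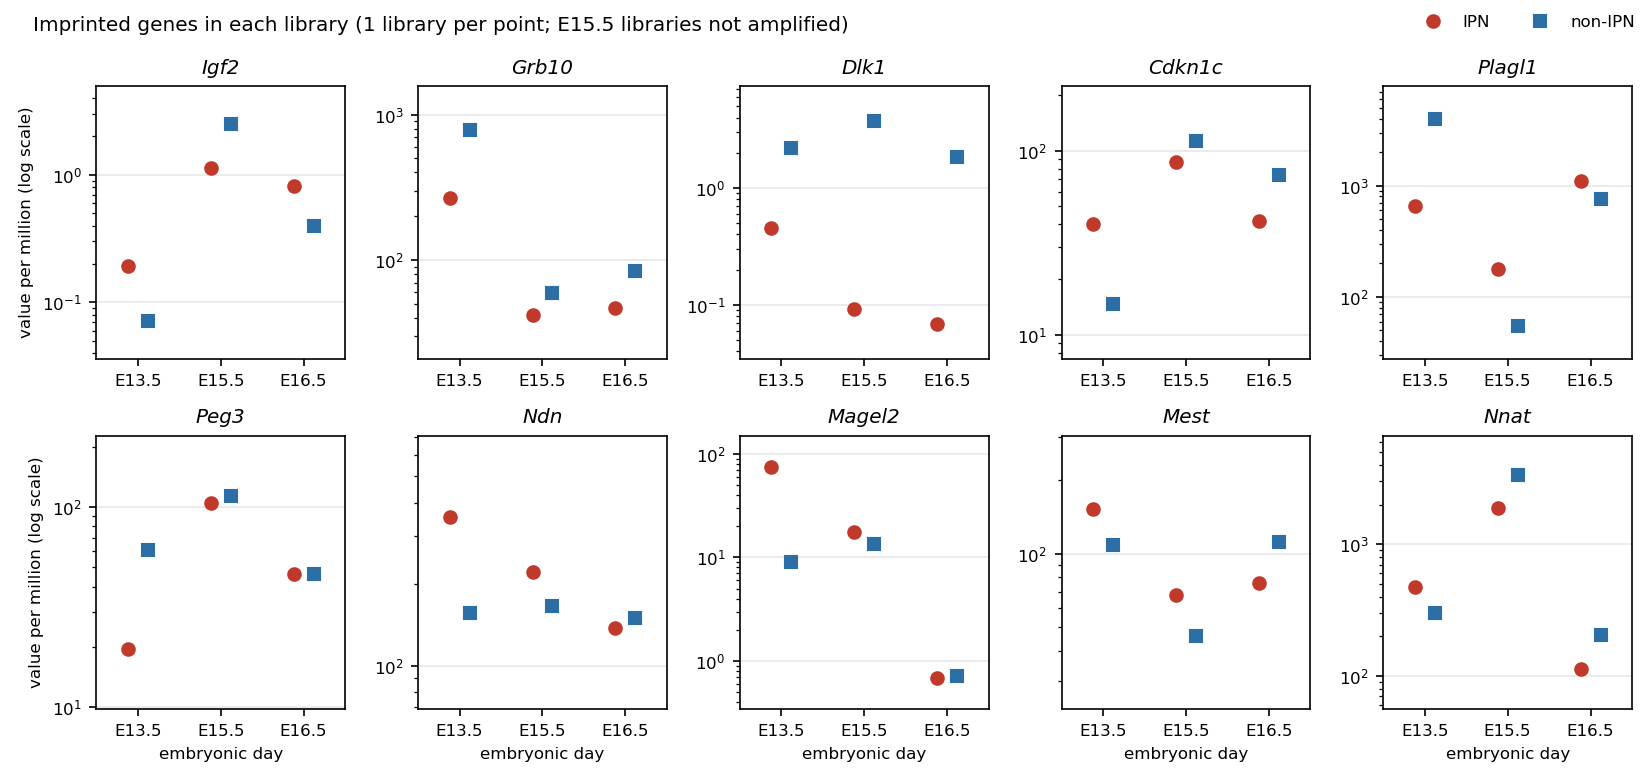
Deposited value per 1000000 (log scale) of each of the 10 genes in IPN (red circles) and non-IPN (blue squares) by embryonic day, 1 library per point. Dlk1 and Grb10 lie lower in IPN at every age, while Plagl1 is lower in IPN at E13.5 and higher at the later ages.

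Among the growth signaling genes, Dlk1 and Grb10 were lower in IPN at every age without passing the test. Dlk1 encodes a membrane protein related to the Delta ligands of the Notch pathway. It was at 0.452, 0.0922 and 0.0684 VPM in the IPN libraries, against 2.22, 3.73 and 1.83 VPM in the non-IPN libraries. The IPN libraries all lay below the non-IPN libraries, from deposited values of 7, 3 and 1 in IPN and 31, 117 and 23 in non-IPN. The fitted difference was -3.49 ± 0.91 (SE; limma, adjusted p = 0.0742), and -2.22 with a pseudocount of 8 in place of 1. The microglia markers and the GABA and interneuron markers were also higher in every non-IPN library, and their part in the Dlk1 values was not tested.

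Grb10 encodes an adaptor that binds the insulin and IGF1 receptors and dampens their signaling. It was at 265, 41.6 and 46.4 VPM in the IPN libraries, against 787, 59.3 and 83.5 VPM in the non-IPN libraries. IPN was the lower library of each pair, but E13.5 IPN lay above the later libraries of both populations. The log2 ratios of deposited values were -1.42, -0.46 and -0.63, and the fitted difference was -0.84 ± 0.25 (limma, adjusted p = 0.123). Without the E13.5 pair it was -0.54.

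Igf2, a secreted growth factor that acts through the IGF1 and insulin receptors, was scarce in all libraries. It was at 0.194, 1.14 and 0.821 VPM in the IPN libraries, against 0.0715, 2.49 and 0.397 VPM in the non-IPN libraries. The deposited values behind these levels were 3, 37 and 12 in IPN and 1, 78 and 5 in non-IPN. IPN was higher in both amplified pairs and lower in the unamplified pair, and the fitted difference was 0.35 ± 0.90 (limma, adjusted p = 0.894).

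Vessels, meninges and choroid plexus are tissues known for Igf2, and their markers were sparse as well. The 13 endothelial and pericyte markers summed to 1.81, 7.13 and 10.2 VPM in IPN and 5.79, 12.7 and 2.54 in non-IPN. The 13 meningeal and fibroblast markers, of which Twist1 was at 0 in every library, summed to 0.840, 2.55 and 3.15 in IPN and 2.36, 2.77 and 11.1 in non-IPN. The 9 choroid plexus markers summed to 1.36, 1.38 and 15.3 in IPN and 2.15, 7.50 and 6.76 in non-IPN. The part of such cells in the Igf2 values was not tested.

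Among the genes that restrain the cell cycle, Cdkn1c and Plagl1 differed in opposite directions at E13.5 and at the later ages. Cdkn1c (p57Kip2) inhibits cyclin-dependent kinases and helps cells leave the cycle. It was at 40.2, 87.3 and 41.5 VPM in the IPN libraries, against 14.7, 112 and 73.8 VPM in the non-IPN libraries. The log2 ratios were 1.59, -0.31 and -0.61, so that IPN was the higher library in the youngest pair alone. The fitted difference was 0.22 ± 0.39 (limma, adjusted p = 0.841) and changed sign to -0.46 without the E13.5 pair.

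Plagl1 (Zac1) is a zinc finger transcription factor that can halt the cell cycle. It was at 659.7, 177 and 1106 VPM in the IPN libraries, against 3934, 55.1 and 758 VPM in the non-IPN libraries. E13.5 non-IPN was the highest of the 6 libraries and E15.5 non-IPN the lowest. The log2 ratios were -2.43, 1.74 and 0.76, and the fitted difference was 0.023 ± 0.92 (limma, adjusted p = 1). Without the E13.5 pair it was 1.25 and passed the test as higher in IPN (limma, adjusted p = 0.0469). It was -0.83 without the E15.5 pair and -0.35 without the E16.5 pair, neither past the test. E13.5 non-IPN also held the highest red blood cell, radial glia and cell cycle sums, and their part in its Plagl1 level was not tested.

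Peg3 is a large zinc finger protein linked to growth and maternal behavior. It was at 19.5, 105 and 46.3 VPM in the IPN libraries, against 60.8, 114 and 46.3 VPM in the non-IPN libraries. The E13.5 pair lay farthest apart, with log2 ratios of deposited values of -1.49, -0.065 and 0.22; in VPM the E16.5 libraries were level. The fitted difference was -0.45 ± 0.33 (limma, adjusted p = 0.644), and 0.077 without the E13.5 pair.

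Ndn and Magel2, neighboring genes of the MAGE family, each had their highest level in E13.5 IPN. Ndn (necdin) promotes cell cycle exit and survival of young neurons. It was at 353, 222 and 138 VPM in the IPN libraries, against 157, 166 and 149.7 VPM in the non-IPN libraries. Its levels spanned a narrow range in non-IPN and a wider one in IPN. The fitted difference was 0.63 ± 0.25 (limma, adjusted p = 0.302), and 0.29 without the E13.5 pair.

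Magel2 takes part in protein ubiquitination and endosomal recycling. It was at 74.9, 17.8 and 0.684 VPM in the IPN libraries, against 9.01, 13.6 and 0.715 VPM in the non-IPN libraries. E13.5 IPN lay far above the other 5 libraries, and the E16.5 libraries were nearly level. The log2 ratios were 3.19, 0.44 and 0.14, and the fitted difference was 1.26 ± 0.66 (limma, adjusted p = 0.469). Without the E13.5 pair it was 0.29. For Ndn and Magel2 alike, IPN was higher in all 3 pairs on the deposited scale, but slightly lower at E16.5 in VPM. Over the 6 libraries Ndn and Magel2 had the highest correlation of any pair of the 10 genes (Pearson's r = 0.88 of log2(VPM + 1)), a description over libraries that share amplification.

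Mest and Nnat had no steady side. Mest encodes a membrane protein with an alpha/beta hydrolase fold. It was at 152, 67.7 and 75.9 VPM in the IPN libraries, against 109, 46.2 and 112 VPM in the non-IPN libraries, so that IPN was higher at the first ages and lower in the last pair. The fitted difference was 0.30 ± 0.26 (limma, adjusted p = 0.700), and 0.13 without the E13.5 pair and 0.14 without the E15.5 pair. Copg2 overlaps Mest on the opposite strand in the GRCm38 annotation. The sources used here do not say whether counting used strand, so reads of such an overlap cannot be told apart.

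Nnat (neuronatin) is a small membrane protein of the endoplasmic reticulum in neurons. It was at 475, 1868 and 112 VPM in the IPN libraries, against 298, 3328 and 206 VPM in the non-IPN libraries. The unamplified libraries were the highest, and IPN was the higher library in the E13.5 pair alone. The fitted difference was -0.21 ± 0.29 (limma, adjusted p = 0.830), and it changed sign without the E15.5 pair (0.075) and without the E16.5 pair (0.017). Blcap, which overlaps Nnat on the opposite strand, was at 50.3, 96.2 and 23.3 VPM in the IPN libraries, against 24.8, 178 and 84.7 VPM in the non-IPN libraries, with the same order of the populations in each pair.

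**Figure D2:**
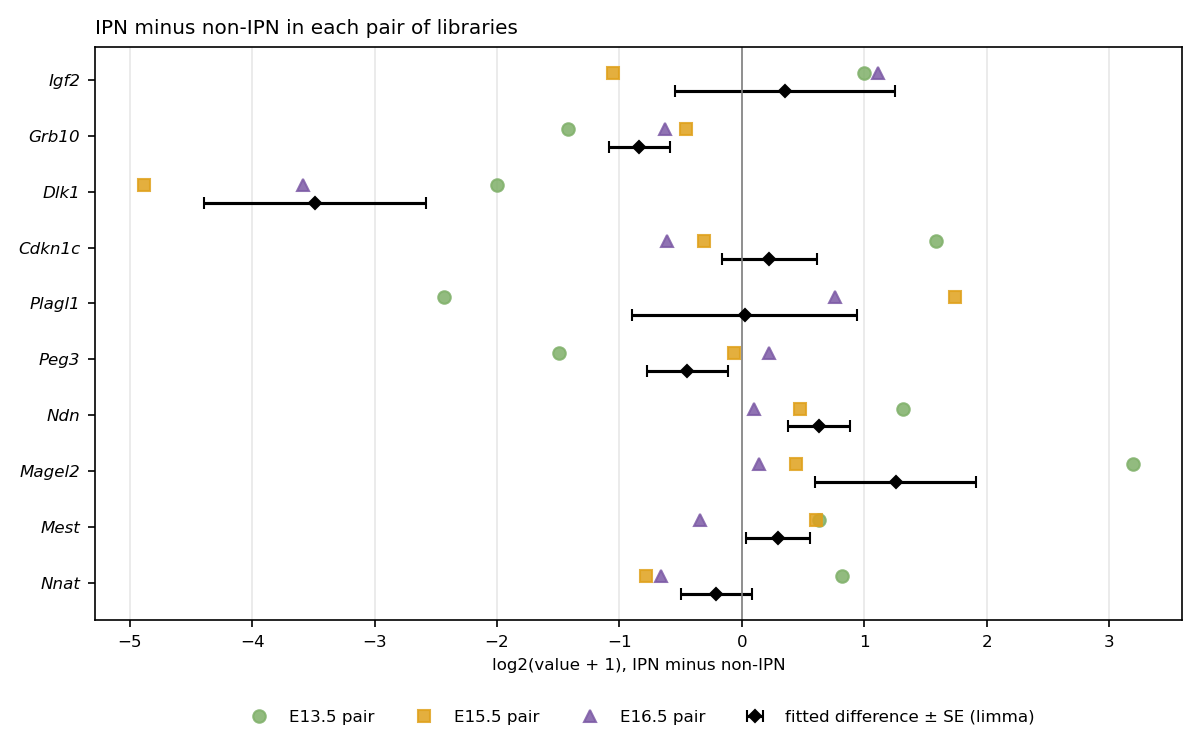
Log2 difference of deposited value + 1 between IPN and non-IPN in the pairs of the 3 ages (colored points), with the limma fit and its standard error (black). Grb10 and Dlk1 have all 3 points below 0, Ndn and Magel2 all 3 above 0, and the other 6 genes have points on both sides.

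Between E16.5 and E13.5, both amplified, 3 of the 10 genes were called lower at E16.5, Grb10, Magel2 and Nnat, and 0 higher. Of all genes tested, 6.02% were called in limma at an adjusted p under 0.05, 3.76% higher and 2.26% lower. Among the 9349 genes with a mean of at least 10 VPM the share called was 14%, with 792 higher and 521 lower. In that setting 2 of the 10 genes were called lower, Grb10 and Magel2. The median fitted change was -0.88 for the 10 genes and 0 for all genes. On the deposited scale 6 of the 10 were lower at E16.5 in both populations and 1 higher, Igf2, against 24.5% of all genes lower and 27.4% higher in both. In VPM 5 were lower and 2 higher, Igf2 and Cdkn1c, against 22% of all genes lower and 32.3% higher. With 1 library per population and age, the error of this change comes from the spread of the population difference over the ages.

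Grb10 was at 46.4 VPM in E16.5 IPN and 265 in E13.5 IPN, and at 83.5 in E16.5 non-IPN and 787 in E13.5 non-IPN. Both E16.5 libraries lay below both E13.5 libraries. The fitted change was -2.99 ± 0.30 (limma, adjusted p = 0.00111), which also passed without the E15.5 pair (adjusted p = 0.0212). The 14 cell cycle markers summed to 671 VPM in E16.5 IPN and 1638 in E13.5 IPN, and to 862 and 4994 in non-IPN of these ages. The 12 radial glia markers summed to 641 and 1316 in IPN, and to 1216 and 4560.4 in non-IPN. Their part in the Grb10 change was not tested.

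Magel2 was at 0.684 VPM in E16.5 IPN and 74.9 in E13.5 IPN, and at 0.715 in E16.5 non-IPN and 9.01 in E13.5 non-IPN. The ages did not overlap. The fitted change was -5.19 ± 0.81 (limma, adjusted p = 0.00713), from -6.72 within IPN and -3.67 within non-IPN. Without the E15.5 pair the adjusted p was 0.0668 (limma).

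Nnat was at 112 VPM in E16.5 IPN and 475 in E13.5 IPN, and at 206 in E16.5 non-IPN and 298 in E13.5 non-IPN. The ages did not overlap, and the fitted change was -1.43 ± 0.36 (limma, adjusted p = 0.0439). The unamplified E15.5 libraries lay above both ages, at 1868 VPM in IPN and 3328 in non-IPN. Nnat did not pass with a pseudocount of 8 (limma, adjusted p = 0.107), in VPM (0.0719), among genes with a mean of at least 10 VPM (0.0531) or without the E15.5 pair (0.138).

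With any of the 4 amplified libraries left out, its age keeps a single library and no gene of the files was called. The loss of the 3 calls in these fits is therefore not particular to these genes. The direction was lower in all 4 cases, with Grb10 between -3.43 and -2.55, Magel2 between -6.65 and -3.74, and Nnat between -2.19 and -0.66. Without the trend and robust options of limma the adjusted p was 0.191 for Grb10, 0.192 for Magel2 and 0.320 for Nnat. No gene of the files was called in that setting either.

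The other 7 genes did not pass. Ndn had a fitted change of -0.83 ± 0.31 (limma, adjusted p = 0.153) and Mest of -0.60 ± 0.32 (adjusted p = 0.315). Dlk1 had -1.21 ± 1.11 (adjusted p = 0.581) and Igf2 1.64 ± 1.10 (adjusted p = 0.433). In 3 genes the populations differed in sign on the deposited scale. Plagl1 had 0.66 in IPN and -2.53 in non-IPN, and its fitted change of -0.93 ± 1.13 (adjusted p = 0.701) became 0.91 without E13.5 non-IPN. Peg3 had 1.16 in IPN and -0.55 in non-IPN, with a fitted change of 0.31 ± 0.41 (adjusted p = 0.701). Cdkn1c had -0.035 in IPN and 2.17 in non-IPN, with a fitted change of 1.07 ± 0.47 (adjusted p = 0.228). In VPM Cdkn1c was slightly higher at E16.5 in IPN too, at 41.5 against 40.2 at E13.5.

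**Figure D3:**
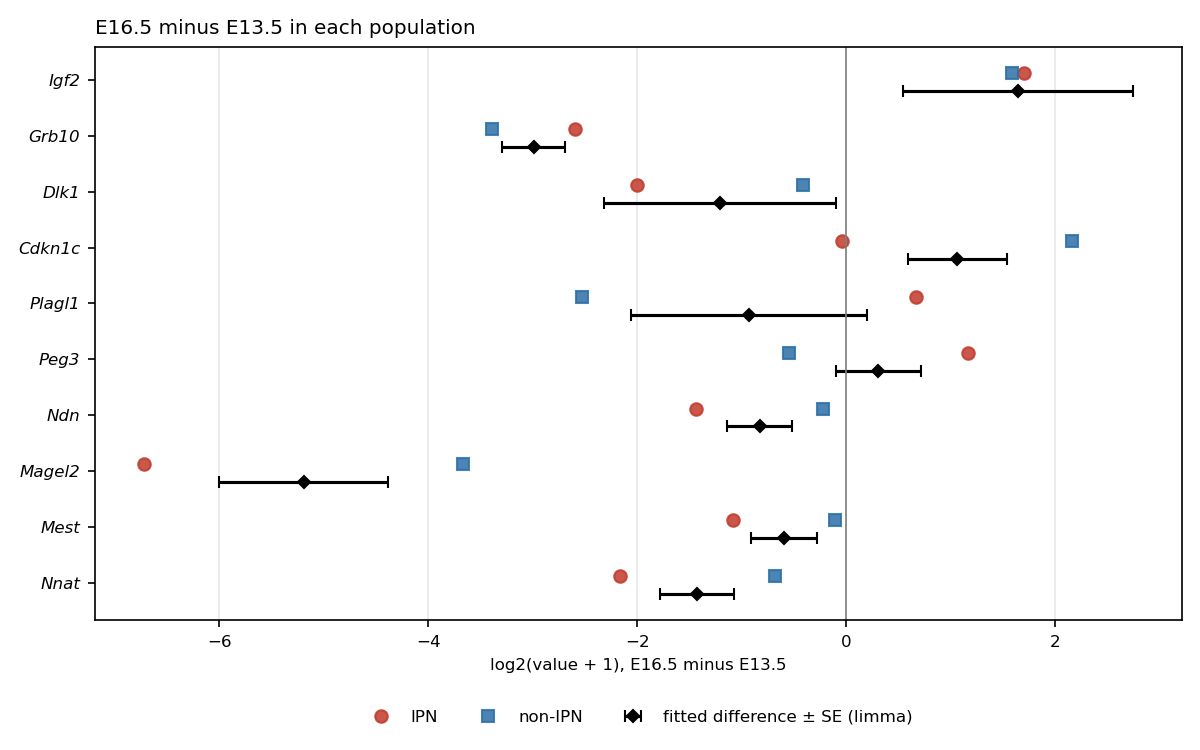
Log2 difference of deposited value + 1 between E16.5 and E13.5 in IPN and in non-IPN (colored points), with the limma fit and its standard error (black). Magel2 has the lowest values of the 10 genes, -6.72 in IPN and -3.67 in non-IPN, and Plagl1, Peg3 and Cdkn1c have points on both sides of 0.

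Whether the population difference itself changed with age was tested with a population by day term, in log2 units per day. Of the 10 genes, Cdkn1c alone was called, as lower, against 1.3% of all genes in either direction (0.624% higher and 0.68% lower). Its term was -0.76 ± 0.17 (limma, adjusted p = 0.0414), as the higher level lay in IPN in the youngest pair and in non-IPN in the later ones. With a pseudocount of 8 it was -0.75 and did not pass (adjusted p = 0.111). This model leaves 1 residual degree of freedom, and leave-one-out fits of it were not run.

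The other 9 terms did not pass. Peg3 had 0.59 ± 0.16 (limma, adjusted p = 0.0912), Nnat -0.54 ± 0.17 (0.114), Magel2 -1.07 ± 0.35 (0.131) and Ndn -0.41 ± 0.15 (0.195). In VPM, Peg3 (adjusted p = 0.0146), Ndn (0.0396) and Nnat (0.00151) passed, and with median-of-ratios scaling Peg3 (0.00752) and Nnat (0.00534). All genes were called more often under these scalings too, 7.27% in VPM and 7.96% with median-of-ratios scaling. Plagl1 had the largest term, 1.21 ± 0.43, with an adjusted p of 0.314. Grb10 (0.29 ± 0.16), Mest (-0.28 ± 0.17), Dlk1 (-0.66 ± 0.62) and Igf2 (-0.11 ± 0.64) had adjusted p values of 0.372 to 0.953.

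Of 69 other imprinted genes listed, 59 were tested and 43 had a mean of at least 1 VPM. Between populations the median was -0.08 for the 59 and 0.016 for the 43, and 3.39% of all genes were called. Of the 59, 1 was lower in IPN and 0 higher. That gene, Pon2, a paraoxonase, was at 1.81, 0.707 and 7.80 VPM in the IPN libraries, against 96.8, 9.35 and 16.8 VPM in the non-IPN libraries, with a fitted difference of -3.35 ± 0.77 (limma, adjusted p = 0.0423). With the E13.5 pair left out the adjusted p was 0.238 (limma), with the E15.5 pair left out it was 0.367, and the call was lost. Pon2 also did not pass in VPM (limma, adjusted p = 0.0578), with median-of-ratios scaling (0.0708), among genes with a mean of at least 10 VPM (0.0930) or with a pseudocount of 8 (0.130). It passed without the E16.5 pair (0.00925) and with a pseudocount of 0.25 (0.0472).

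Between ages 5 of the 59 rose and 2 fell. Of all genes 6.02% were called, 3.76% higher and 2.26% lower, and 14% of those with a mean of at least 10 VPM. The median change was 0.21 for the 59 and 0.07 for the 43 with a mean of at least 1 VPM. Ube3a, a ubiquitin ligase silenced on the paternal copy in neurons, was at 177 VPM in E16.5 IPN and 50.4 in E13.5 IPN, and at 139.6 and 70.2 in non-IPN (1.28 ± 0.30; limma, adjusted p = 0.0322). Usp29, a neighbor of Peg3 (1.95 ± 0.34, 0.0118), Ppp1r9a, which encodes the actin-binding neurabin (1.79 ± 0.27, 0.00660), and Nap1l5 (1.67 ± 0.31, 0.0146) rose as well. Dcn, also on the list of meningeal markers and listed at 0 in E13.5 IPN, rose (4.88 ± 1.12, 0.0325). Gnas, a stimulatory G protein subunit (-0.91 ± 0.22, 0.0383), and Axl, a receptor kinase (-2.49 ± 0.62, 0.0439), fell. Without the E15.5 pair 97 genes of the files were called, and none of these was among them (limma, adjusted p = 0.0590 to 0.139). With a pseudocount of 8 Ube3a (limma, adjusted p = 0.0717), Gnas (0.0726), Axl (0.0746) and Dcn (0.0788) did not pass, while Usp29, Ppp1r9a and Nap1l5 did. These 7 genes, like the other genes called between ages, lost their calls with any of the 4 amplified libraries left out, when 0 of all genes passed in limma and 1809 to 4025 had an unadjusted p under 0.05.

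**Figure D4:**
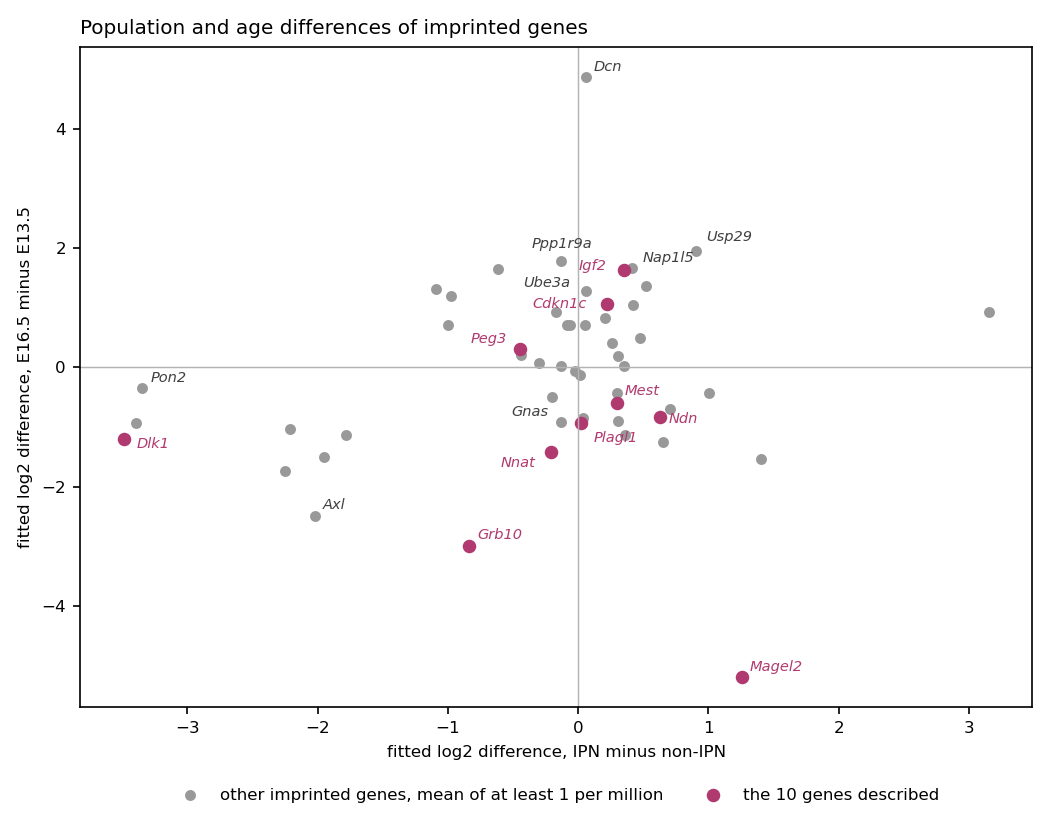
Fitted log2 difference between populations (horizontal) and between ages (vertical) for the 10 genes (magenta) and the 43 other imprinted genes with a mean of at least 1 VPM (gray), with other imprinted genes labeled where called in either comparison. Magel2 and Grb10 lie lowest, at -5.19 and -2.99 between ages, and Dlk1 lies farthest left, at -3.49 between populations.

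Of 26 other genes of insulin and IGF signaling, the pathway of Igf2 and Grb10, 4 were higher and 2 lower in IPN, with a median of 0.10. Of all genes 3.39% were called, 0.982% higher and 2.41% lower. Igf1, the related growth factor, was at 0.0646, 0.215 and 0.205 VPM in the IPN libraries, against 9.30, 14.2 and 28.1 VPM in the non-IPN libraries, with a fitted difference of -6.10 ± 0.73 (limma, adjusted p = 0.00147). Igfbp4, a binding protein gene, was also lower (-2.08 ± 0.33, 0.00632). Igfbp2 (1.41 ± 0.32, 0.0423) and Igfbp3 (2.19 ± 0.44, 0.0217), other binding protein genes, were higher, as was Grb14, a relative of Grb10 (2.49 ± 0.55, 0.0354). These 5 genes lost their calls without the E15.5 pair (adjusted p = 0.0712 to 0.516). Grb14 (0.0647) and Igfbp3 (0.0809) also lost them without the E13.5 pair, and Grb14 (0.106) and Igfbp2 (0.200) without the E16.5 pair. Microglia are known to express Igf1, their markers were higher in every non-IPN library, and their part was not tested.

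Between ages 3 of the 26 rose and 2 fell, with a median of 0.51. Of all genes 6.02% were called, and 14% of those with a mean of at least 10 VPM. Igfbp3 (4.72 ± 0.54, 0.00172, fit ± SE and limma adjusted p) and Pik3r1, a regulatory subunit of PI3 kinase (1.33 ± 0.33, 0.0441), were among those that rose. Irs1, an insulin receptor substrate (-1.54 ± 0.34, 0.0276), and Igfbp2 (-1.85 ± 0.40, 0.0246) fell. Without the E15.5 pair Igfbp3 passed (limma, adjusted p = 0.0276), and Irs1 (0.104), Igfbp2 (0.155) and Pik3r1 (0.177) did not.

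Genes close in function to Cdkn1c, Ndn and Plagl1 were counted the same way. The shares of all genes called were 3.39% between populations and 6.02% between ages. Among genes with a mean of at least 10 VPM the share between ages was 14%. Of 14 other cell cycle inhibitors and related genes, Rbl1 of the retinoblastoma family was lower in IPN (-1.49 ± 0.33; limma, adjusted p = 0.0336), a call lost with either the E13.5 pair (0.185) or the E15.5 pair (0.333) left out. With age Rbl1 (-2.58 ± 0.40, 0.00713), Btg2 (-2.56 ± 0.41, 0.00830) and Gadd45g (-2.18 ± 0.43, 0.0169) fell, and Cdkn1b, a relative of Cdkn1c, rose (1.31 ± 0.33, 0.0467). Of 14 MAGE family members and partners, 0 were called between populations, and Emx2, a cortical transcription factor, fell with age (-2.21 ± 0.48, 0.0251). Of 5 relatives of Plagl1 and Dlk1, 0 were called between populations, and Plagl2 fell with age (-1.64 ± 0.38, 0.0330).

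The genes most like each of the 10 were taken by Pearson's r of log2(VPM + 1) over the 6 libraries, among genes with a mean of at least 10 VPM. With so few libraries, which share amplification, these values are a description. Dlk1 was most like C1qc (0.99) and Fcrls (0.99), both known from microglia. Ndn was most like Mfap4 (0.99) and the Notch pathway gene Dll3 (0.97), and Magel2 like Fam96b (0.99) and Phf23 (0.99). The nearest gene was Anp32b for Grb10, Fbxl5 for Igf2, Tmem145 for Cdkn1c, Serbp1 for Plagl1, Cox19 for Peg3, 2310016M24Rik for Mest and Pmm2 for Nnat, each with r of at least 0.98. Among the 10 themselves r lay between -0.94, for Igf2 and Mest, and 0.88.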

How the data were processed

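RNA sequencing of 6 libraries was analysed. The submitters' processing notes list CASAVA 1.9, TopHat 1.2.0, SAMtools 0.1.18, edgeR and build mm9; what each did, the counter and the annotation are not stated there. The deposited whole numbers were treated as a signal scaled by the authors, since upper quartiles were 438 to 444 in the amplified libraries and 1501 to 1501.5 in the others although totals differed. Sequencing depth is therefore unknown, and no counting interval was computed.

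Files were joined by symbol. Symbols listed 2 times (6 of 20373 rows) were dropped, and 19561 genes above 0 in at least 1 library were tested. Differences were fitted with limma 3.58.1 (trend, robust) in R 4.3.3 on log2(deposited value + 1), which understates changes of low genes, with Benjamini-Hochberg adjustment over all genes at 0.05. The model held population and day as a factor, with 2 residual degrees of freedom and a median prior of 8.26. Day pairs the libraries because, per the labels, IPN and non-IPN of each age came out of a common cell sort. A second model added population by day. P-values measure the spread between these libraries, which may be technical. The code was tested on simulated data.

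The 10 genes, lists and tests were chosen with earlier results of these data known. The text names the 10 genes, called genes of each list (at most 8 imprinted genes, 4 otherwise, per direction) and the nearest genes by correlation. H19, Meg3, Rian, Mirg, Zim2, Zim3, Zfp264, Peg13 and Map2 of the lists were not analysed here, and 1 called gene of the lists is counted but not reported here. Alternatives were other pseudocounts, scalings, filters and limma options, no day term, and leaving out pairs or libraries.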

Additional observations from a re-analysis of the deposited data

Results flagged for a closer look

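The population by day term called 4 imprinted genes (limma, adjusted p under 0.05), in a fit with 1 residual degree of freedom. Of the 10 genes 1 was called lower, and of the 59 other imprinted genes tested 2 were called higher and 1 lower. Of all genes 1.3% were called. The term draws on the unamplified E15.5 pair too, so age and amplification cannot be fully told apart in it. Levels follow the order of age, youngest first. Cdkn1c had a term of -0.76 log2 units per day, with 40.2, 87.3 and 41.5 VPM in the IPN libraries, against 14.7, 112 and 73.8 VPM in the non-IPN libraries. Blcap, which overlaps Nnat, had -0.95 per day (adjusted p = 0.0113), with 50.3, 96.2 and 23.3 VPM in the IPN libraries, against 24.8, 178 and 84.7 VPM in the non-IPN libraries. Asb4 had 2.65 per day (adjusted p = 0.0472), with 0, 0.615 and 0.410 VPM in the IPN libraries, against 8.37, 0.957 and 0.238 VPM in the non-IPN libraries. Pon2 had 1.47 per day (adjusted p = 0.0496), with 1.81, 0.707 and 7.80 VPM in the IPN libraries, against 96.8, 9.35 and 16.8 VPM in the non-IPN libraries. The E13.5 non-IPN library, which stands apart in its marker sums, held the highest Asb4 and Pon2 levels. In the same term 7 of 10 red blood cell markers, 2 of 12 radial glia markers and 1 of 14 cell cycle markers were called higher, and their part in these 4 terms was not tested. Asb4 and Blcap were chosen after their values were seen. With a pseudocount of 8 none of the 4 passed, and among genes with a mean of at least 10 VPM Pon2 did not (adjusted p = 0.0709).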

How the results depend on the processing

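With 1 library per population and age, calls rest on few degrees of freedom and on limma's prior. Between populations 664 genes were called, 364 with a pseudocount of 8, 358 among genes with a mean of at least 10 VPM, 0 without trend and robust options (1946 at an unadjusted p under 0.05) and 0 with no replicate block, that is without the day term that pairs the libraries (676 at an unadjusted p under 0.05). Leaving out a pair gave 54 (without E15.5) to 595 genes, and 0 to 1 of the 10, Plagl1. In VPM the median of all genes was -0.14. Uncalled population differences that changed sign ranged, with a pair left out, from -0.028 to 1.06 for Igf2 (-0.0078 with a pseudocount of 8), -0.46 to 0.64 for Cdkn1c, -0.83 to 1.25 for Plagl1 (-0.12 in VPM), -0.78 to 0.077 for Peg3 and -0.72 to 0.075 for Nnat. Between ages 1178 genes and 3 of the 10 were called, 529 genes with a pseudocount of 8, 97 genes and 1 of the 10 without the E15.5 pair, and 0 and 0 without trend and robust options (3414 genes at an unadjusted p under 0.05) or with any amplified library left out. With a library left out, uncalled age changes ranged from -2.77 to 0.91 for Plagl1 and -0.48 to 1.09 for Peg3. The population by day term called 255 genes, 19 with a pseudocount of 8 (0 of the 10), 1422 in VPM (1 of the 10 higher and 3 lower) and, in alternatives chosen after seeing the data, 1558 with median-of-ratios scaling (1 higher, 2 lower) and 135 among genes with a mean of at least 10 VPM. The Igf2 term was 0.0074 with a pseudocount of 8. Igf2 and Dlk1 lie under the mean of 10 VPM and gave no value there. Except where a setting removes libraries or genes, the cause was not tested.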
